A study of Mus musculus with 12 samples.

Results

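The genes described here encode the MAP kinase cascade and the proteins that switch it off, read as transcripts pulled down for N6-methyladenosine (m6A), the commonest internal modification of mRNA, in livers with cholestatic fibrosis. Members were the genes of the deposited table whose symbol starts with Map2k, Map3k, Map4k, Mapk, Dusp, Spry or Spred and goes on to a digit, directly or after letters. The rule found 39 of 5667 genes with a peak, a total that includes any genes without a symbol. They comprise 25 genes of the kinase cascade and its partners and 13 genes of the feedback inhibitors (Dusp, Spry, Spred). The last, Spryd4, matches by its letters alone, since SPRY domain proteins are not Sprouty proteins, and it is counted apart.

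The samples were livers of male C57BL/6 mice aged 12 weeks, 3 samples with hepatic fibrosis after bile duct ligation (BDL), in which the common bile duct is tied off, and 3 samples of normal mice as control, each immunoprecipitated with an m6A antibody (IP). The labels do not describe the control mice as sham-operated. Nor do they say that the numbered samples came from different mice, so p-values reflect sample-to-sample spread, which may be technical. The input libraries, RNA without immunoprecipitation, were not analysed here, and IP reads mix the amount of a transcript with its methylation, which cannot be told apart here. In whole liver, moreover, more cells of a type and more RNA per cell cannot be told apart. The libraries held 20540863 to 35691860 reads in peaks in BDL and 15254737 to 19378332 in control.

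In the MAP kinase cascade a signal passes through successive kinases. MAP3Ks, some of them driven by MAP4Ks, phosphorylate MAP2Ks, which phosphorylate the MAP kinases ERK, JNK, p38 and ERK5. Dual-specificity phosphatases (Dusp) remove the activating phosphates from MAP kinases, and Sprouty and Spred proteins restrain the RAS and RAF steps above ERK. Many of these inhibitors are themselves made in response to the signal and so close a negative feedback loop. In liver the ERK branch is known for hepatocyte and bile duct cell proliferation, and the JNK and p38 branches for stress responses.

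Several feedback inhibitors had more m6A-IP reads in BDL and none passed as lower, while a few cascade genes passed as higher and Map2k3 as lower. Reads of the peaks that carry a single gene name were added up for that gene and compared by edgeR's quasi-likelihood test with Benjamini-Hochberg adjustment over all 4306 genes tested, at a threshold of 0.05. Of 12 tested inhibitor genes, 5 rose (Dusp14, Dusp10, Dusp5, Dusp3, Spry2) and 0 fell, while 8 had an unadjusted p under 0.05 and DESeq2 called 6. Of all tested genes, 8.20% were called higher and 6.55% lower, 27.5% had an unadjusted p under 0.05 and DESeq2 called 19.7%. Of 21 tested cascade genes, 3 rose (Mapk7, Map3k1, Map3k9) and 1 fell (Map2k3). By this count 19.0% were called against 14.7% of all genes, a share near the background. Of the same 21, however, 10 had an unadjusted p under 0.05 and DESeq2 called 6, against 27.5% and 19.7% of all genes. The median log2 difference, BDL minus control, was 1.07 for the tested inhibitors, 0.09 for the tested cascade genes (also with Map3k9, which had no control reads, at its lower bound) and 0.03 for all genes. With Spryd4 counted among the inhibitors the median was 0.86. The difference between inhibitors and kinases was not tested.

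**Figure D1:**
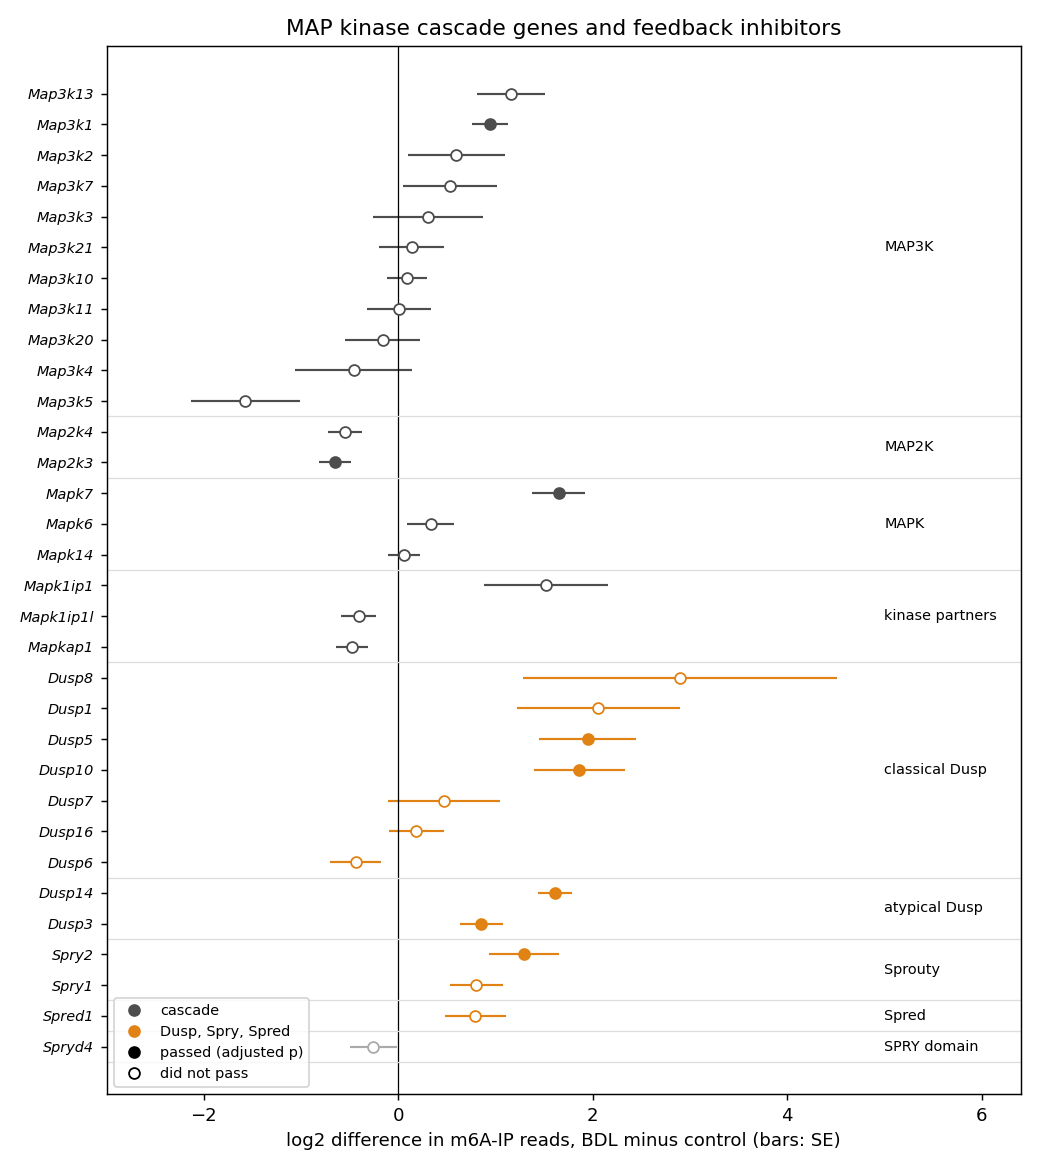
The log2 difference in m6A-IP reads, BDL minus control (x axis), for tested members by role (y axis), with bars for the SE; filled points passed the adjusted p threshold, and Map3k9, without control reads, is left out. Of the 12 inhibitors, 11 lie right of 0, and the cascade genes lie on both sides.

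Levels are given as CPM, TMM-normalised IP reads scaled to a library's reads in peaks. Summed over the 13 inhibitor genes, the BDL libraries held 1360, 1541 and 1716 CPM, and the control libraries held 907, 989 and 1013 CPM. Summed over the 22 cascade genes with a peak of their own, the BDL libraries held 3371, 3827 and 3274 CPM, and the control libraries 3739, 3960 and 3756 CPM. Map2k4 weighed most in the cascade sums, with means of 1068 CPM in BDL and 1563 CPM in control. Without Map2k4 the mean cascade sum would be higher in BDL than in control, not lower. Of the 21 tested cascade genes, 13 had a log2 difference above 0 and 8 below. The inhibitor sums of BDL and control did not overlap, with means of 1539 ± 178 in BDL and 970 ± 55.6 in control (SD, n = 3 each), while the cascade sums overlapped. For 9 of the 12 tested inhibitors every BDL library lay above every control library, and for none below. For the 21 tested cascade genes these counts were 5 above and 5 below. Among all tested genes 21.6% lay wholly above and 17.3% wholly below.

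**Figure D2:**
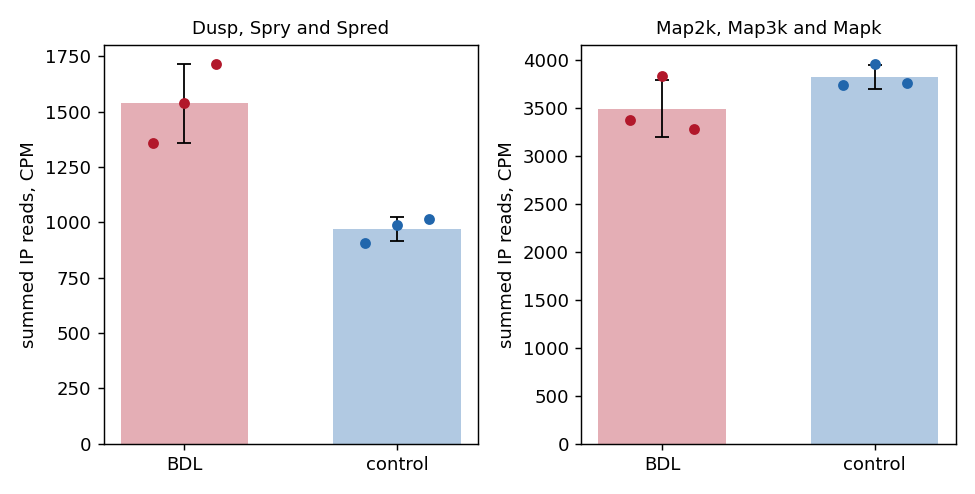
Summed IP reads in CPM (y axis) of the inhibitors (left) and of the cascade genes (right) in BDL and control livers, with a point per library, bars for the mean and lines for the SD. The inhibitor sums lie between 1360 and 1716 CPM in BDL, all above control, and the cascade sums overlap.

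Among the atypical Dusp genes, small phosphatases without the MAP kinase docking domain of the classical ones, both members rose. Dusp14 (MKP6), known as a brake on T cell receptor and TAK1 signalling, had 327, 278 and 339 CPM in BDL and 108, 96.4 and 104 CPM in control. The groups were far apart beside their spread, and control varied least. Its log2 difference was 1.61 (SE 0.18, edgeR adjusted p = 0.000837), a 3.06-fold rise over 1 peak (chromosome 11, 84048816 to 84049015). It passed in each of 6 further fits, which left out 1 library at a time (leave-one-out). Dusp3 (VHR), which acts on ERK and JNK, had 210.2, 202 and 150.4 CPM in BDL and 117, 109 and 85.2 CPM in control. In both groups the third library was the lowest, and the groups did not overlap. Dusp3 rose by 0.86 on the log2 scale (SE 0.22, edgeR adjusted p = 0.0329) and passed in 1 of the 6 leave-one-out fits, that without control replicate 1, with adjusted p up to 0.122.

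The classical MAP kinase phosphatases, which dock on MAP kinases, were mixed, with 2 of 7 higher. Dusp10 (MKP5), which prefers JNK and p38, had 62.4, 86.0 and 114 CPM in BDL and 12.8, 18.2 and 41.0 CPM in control. Control replicate 3 was the highest of the controls and still below every BDL library. Dusp10 rose by 1.86 (SE 0.47, edgeR adjusted p = 0.0299). The call held in 1 of the 6 leave-one-out fits, that without control replicate 3 (0.00788), with adjusted p up to 0.126 in the others. Dusp5, a nuclear phosphatase of ERK, had 27.97, 40.4 and 48.4 CPM in BDL and 15.3, 6.89 and 8.05 CPM in control. The groups did not overlap, and control replicate 1 was the highest of the controls. Dusp5 rose by 1.95 (SE 0.50, edgeR adjusted p = 0.0315), and it passed in 1 of those 6 fits, that without control replicate 1, with adjusted p up to 0.135.

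Dusp1 (MKP1), the immediate early phosphatase of p38 and JNK, did not pass although its groups did not overlap. It had 25.1, 18.2 and 33.1 CPM in BDL and 1.41, 3.63 and 13.3 CPM in control. The control libraries spread widely, with 19, 60 and 236 reads. Its log2 difference was 2.06 (SE 0.84, edgeR adjusted p = 0.147), and it passed only without control replicate 3 (0.0267) among the 6 fits. Dusp8, a phosphatase of JNK and p38, had 6.12, 10.7 and 10.3 CPM in BDL and 0.963, 2.66 and 0 CPM in control, over 1 peak of 75 bases. Its log2 difference of 2.90 carried an SE of 1.62 and did not pass (edgeR adjusted p = 0.293).

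Dusp6 (MKP3), the cytoplasmic phosphatase of ERK and a common readout of ERK activity, was not higher. It had 181, 314 and 231 CPM in BDL and 239, 343 and 403 CPM in control, and the groups overlapped. Its log2 difference was -0.44 (SE 0.26, edgeR adjusted p = 0.317), the only value below 0 among the 12 tested inhibitors. Dusp16 (MKP7), a phosphatase of JNK and p38, had 71.8, 118 and 150.1 CPM in BDL and 88.3, 101 and 110 CPM in control. BDL spanned the whole control range, with a log2 difference of 0.19 (SE 0.29). Dusp7, another cytoplasmic phosphatase of ERK, also overlapped (0.47, SE 0.57).

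Promoters from RefSeq (build GRCm38.p6, 250 bases before to 50 after the start) were found for 35 of the 39 members and searched for motifs through which signals are known to induce such genes. These were the cyclic AMP response element (CRE, TGACGTCA), the AP-1 element (TGANTCA) and the CArG box of serum response factor, each the same on both strands and none overlapping another in the promoters shown. A CRE lay in 2 of 12 inhibitors with a window, Dusp1 and Dusp8, in none of 22 cascade genes and in 1.79% of all 32851 windows. A CArG box lay in Dusp5 alone among the members and in 1.63% of all windows. AP-1 elements lay in Map2k7 and Map3k10, in no inhibitor and in 7.81% of all windows. Members are counted here per gene, with 43 windows for the 35 genes, while the percentages are per window. The 3 promoters with a CRE or a CArG box are shown because they belong to classical phosphatases whose BDL values all lay above control. Of these Dusp5 passed the test, and Dusp1 and Dusp8 did not. No such motif was found for the other inhibitors that passed, Dusp14, Dusp10, Dusp3 and Spry2. A link between motif and difference was not tested. Capitals mark the motif, with 1 CRE in Dusp1, 2 in Dusp8 and 2 adjoining CArG boxes in Dusp5.
Dusp1 (chr17:26508423-26508722, minus strand): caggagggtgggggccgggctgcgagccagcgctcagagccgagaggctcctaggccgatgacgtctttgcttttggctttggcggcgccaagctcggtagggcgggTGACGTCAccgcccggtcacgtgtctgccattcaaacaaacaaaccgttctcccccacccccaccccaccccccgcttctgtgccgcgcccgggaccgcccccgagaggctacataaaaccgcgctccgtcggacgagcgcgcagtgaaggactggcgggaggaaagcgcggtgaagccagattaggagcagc
Dusp8 (chr7:142095235-142095534, minus strand): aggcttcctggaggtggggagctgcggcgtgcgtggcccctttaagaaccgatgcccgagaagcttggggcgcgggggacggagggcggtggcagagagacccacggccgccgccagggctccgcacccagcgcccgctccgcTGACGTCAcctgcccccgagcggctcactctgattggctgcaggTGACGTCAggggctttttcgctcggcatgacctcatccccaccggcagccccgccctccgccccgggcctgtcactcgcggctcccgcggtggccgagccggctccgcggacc
Dusp5 (chr19:53528895-53529194, plus strand): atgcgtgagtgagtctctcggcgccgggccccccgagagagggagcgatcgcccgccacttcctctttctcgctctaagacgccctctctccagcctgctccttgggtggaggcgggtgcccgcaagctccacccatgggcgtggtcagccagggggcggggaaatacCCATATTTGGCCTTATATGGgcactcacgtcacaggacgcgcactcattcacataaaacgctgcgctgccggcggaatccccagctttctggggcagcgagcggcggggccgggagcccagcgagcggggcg

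Of the Sprouty genes, whose products block RAS activation by growth factor receptors, Spry2 rose. It had 54.6, 55.1 and 70.1 CPM in BDL and 23.9, 32.5 and 16.9 CPM in control, without overlap. Its log2 difference was 1.29 (SE 0.36, edgeR adjusted p = 0.0411). The call held in 1 of the 6 leave-one-out fits, that without control replicate 2, with adjusted p up to 0.152. Spry1 had 254, 297 and 447 CPM in BDL and 214, 224 and 133 CPM in control. BDL replicate 3 stood above the others, and BDL replicate 1 was close to the highest control. Its log2 difference of 0.80 (SE 0.27) did not pass (edgeR adjusted p = 0.0869), though it did with DESeq2 (0.0280) and with library totals alone (0.0221). Spry4 was not tested, with 115 reads in control replicate 1 and none in the other libraries, in a peak of 50 bases. Spred1, which brings the RAS inhibitor neurofibromin to the membrane, had 122, 97.4 and 112 CPM in BDL and 68.4, 38.0 and 84.7 CPM in control. Its groups did not overlap. Its log2 difference of 0.79 (SE 0.31) did not pass (edgeR adjusted p = 0.136), though it did with library totals alone (0.0444).

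Of the MAP3K genes at the top of the cascade, 2 of 12 tested rose. Map3k1 (MEKK1), an upstream kinase of JNK and ERK with a ubiquitin ligase domain, had 323, 373 and 387 CPM in BDL and 206, 151 and 206 CPM in control. The groups stood well apart. Map3k1 rose by 0.94 (SE 0.19, edgeR adjusted p = 0.0121) and passed in 4 of the 6 leave-one-out fits, failing without BDL replicate 2 or 3, with adjusted p up to 0.0651. Map3k9 (MLK1), a mixed lineage kinase of the JNK pathway, had 80, 162 and 173 reads in BDL and none in control. With a floor of 3 reads in each control library it was at least 23.0-fold higher in BDL, a bound for counting error only (edgeR adjusted p = 0.0416). Map3k9 passed in none of the 6 leave-one-out fits (0.0513 to 0.136), nor without a filter on low counts (0.0575).

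Map3k13 (LZK), another activator of JNK, had 129, 224 and 179 CPM in BDL and 45.1, 80.1 and 114 CPM in control. The groups did not overlap, but BDL replicate 1 and control replicate 3 were close. Its log2 difference was 1.16 (SE 0.35, edgeR adjusted p = 0.0578), and it passed with DESeq2 (0.0124), with library totals alone (0.0236) and without control replicate 3 (0.0293). Map3k5 (ASK1), the oxidative stress sensor of the JNK and p38 branches, pointed the other way, with 18.0, 6.46 and 6.80 CPM in BDL and 28.7, 36.9 and 27.4 CPM in control. Every BDL library was below every control library, with a log2 difference of -1.57 (SE 0.56) which missed the threshold (edgeR adjusted p = 0.102) except without BDL replicate 1 (0.0488). Map3k10 (MLK2) had 179, 188 and 145 CPM in BDL and 133, 188 and 162 CPM in control, overlapping groups with a log2 difference of 0.09 (SE 0.21). The other tested MAP3K genes, Map3k2, Map3k3, Map3k4, Map3k7, Map3k11, Map3k20 and Map3k21, all overlapped between groups, and their log2 differences ranged from -0.46 (Map3k4) to 0.60 (Map3k2). Map4k2 had a peak of 50 bases without reads in any library and was not tested.

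For each of the 3 MAP2K genes, the middle tier, every BDL library lay below every control library on the TMM scale. Map2k3 (MKK3), the activator of p38, had 276, 300.3 and 254 CPM in BDL and 382, 486 and 436 CPM in control. The highest BDL library was below the lowest control library. Map2k3 fell by 0.65 on the log2 scale (SE 0.17, edgeR adjusted p = 0.0315). The call held in 1 of the 6 leave-one-out fits (that without control replicate 1, adjusted p up to 0.115), and not with library totals alone (log2 -0.30, adjusted p = 0.249). Map2k4 (MKK4), which activates JNK and p38, had 1145, 1214 and 845 CPM in BDL and 1638, 1612 and 1441 CPM in control. Its log2 difference of -0.55 (SE 0.17) did not pass (edgeR adjusted p = 0.0669), except with DESeq2 (0.0143). The peak of Map2k7 (MKK7), the other activator of JNK, is shared with Gm49320 and was tested as a peak, with 118, 146 and 118 CPM in BDL and 238, 201 and 183 CPM in control. Its log2 difference was -0.71 (SE 0.19, edgeR adjusted p = 0.0598 over all peaks).

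Scaling bears on these directions. Against TMM, library totals alone moved the median log2 difference of all genes by 0.35, to 0.38. With totals alone 4 cascade genes passed as higher and 0 as lower, against 3 and 1 with TMM. The median was then 1.43 for the inhibitors and 0.44 for the cascade genes, which relative to all genes left the inhibitors above and the cascade genes near the whole.

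Of 4 MAP kinase genes, 1 rose. Mapk7 (ERK5), the effector of the MEK5 branch, had 137, 212 and 194 CPM in BDL and 41.4, 64.8 and 66.8 CPM in control. Its lowest BDL library stood far above its highest control library. Mapk7 rose by 1.65 (SE 0.27, edgeR adjusted p = 0.00578), a 3.14-fold rise, and passed in each of the 6 leave-one-out fits (0.0101 to 0.0352). Mapk14 (p38 alpha) had 414, 531 and 419 CPM in BDL and 430, 418 and 460.3 CPM in control. The groups overlapped, with a log2 difference of 0.06 (SE 0.16). Mapk6 (ERK3), an atypical MAP kinase, had a log2 difference of 0.33 (SE 0.24).

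Among the partner genes none of 3 tested passed edgeR, while 3 had an unadjusted p under 0.05 and DESeq2 called 0. Mapkap1 (SIN1), a subunit of the mTORC2 kinase complex named for its binding to stress kinases, had 214, 193 and 177 CPM in BDL and 267, 271 and 274 CPM in control. Control varied little and lay above every BDL library, with a log2 difference of -0.48 (SE 0.16, edgeR adjusted p = 0.0894). Mapk1ip1l had 173, 142 and 151 CPM in BDL and 190.2, 221 and 206 CPM in control (log2 difference -0.41, SE 0.18). Mapk1ip1 had a log2 difference of 1.52 (SE 0.63). Both peaks of Mapk8ip3 (JIP3), a scaffold that holds the JNK module on transport vesicles, are shared with a neighbouring gene. The peak shared with Mrps34 had a log2 difference of -0.42 (SE 0.17, edgeR adjusted p = 0.184) and the one shared with Eme2 of -1.35 (SE 0.35, 0.0514). The single peak of Map3k12 (DLK), shared with Pcbp2, had -0.27 (SE 0.72). Spryd4 had 84.7, 81.7 and 109 CPM in BDL and 95.4, 135 and 98.5 CPM in control. The groups overlapped, and its log2 difference of -0.26 (SE 0.24) turned to 0.10 with library totals alone.

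**Figure D3:**
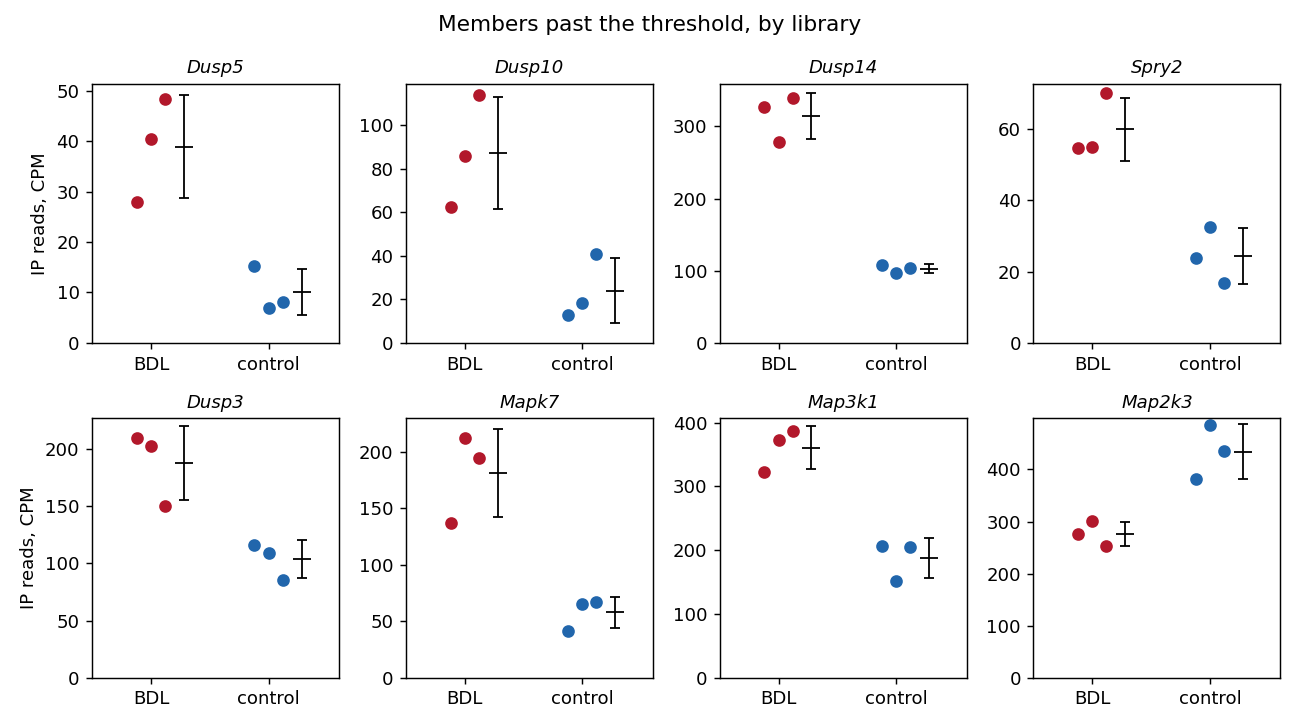
IP reads in CPM (y axis, from 0) in each BDL and control library for the members that passed the threshold, except Map3k9, with the mean and SD beside the points. In 7 panels every BDL point lies above every control point, and in Map2k3 every BDL point lies below.

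Of the 9 members that passed, 2 (Dusp14 and Mapk7) passed in every leave-one-out fit and 7 did not. None turned direction in these fits, and DESeq2 called all 9. Of all 4306 genes tested, 4.62% passed in the fit of all libraries and in every such fit. The count of inhibitors that passed was 1 without BDL replicate 1, 2 or 3, the count being Dusp14 each time, and 2 or 3 without a control library. The count of cascade genes was 1 without BDL replicate 2 or 3 and 2 without control replicate 2.

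The same reads were also compared peak by peak, to ask whether a difference ran along a transcript or sat at single sites. The 39 genes held 63 peaks, 58 of them annotated to a single gene, with a median width of 175 bases. The place of the Dusp1 peak (chromosome 17, 26508280 to 26508479) cannot be read this way, since the listed span of Dusp1 is 56539 bases against a RefSeq gene length of 2882. The spans listed for Mapk6 are inconsistent as well. Of the 54 member peaks outside these 2 genes, 70.4% lay past 80% of the listed gene span, against 64.5% of all peaks of a single gene. In the first 20% of it lay 6 of 38 such cascade peaks, among them 2 of Map3k10, and 0 of 15 such inhibitor peaks. The Dusp1 peak, left out of this count, overlaps the Dusp1 promoter window shown above (26508423 to 26508722) if its build is GRCm38, which is not stated. At peak level 6 of 55 tested member peaks rose and 0 fell, where 9.16% of 7083 peaks were called, 4.62% higher and 4.55% lower, so that the share called in either direction was near the background. An unadjusted p under 0.05 was found for 17 of the 55 and for 23.7% of all tested peaks. The 6 peaks that passed after adjustment belonged to Dusp14, Dusp10, Dusp5, Dusp3, Map3k1 and Mapk7.

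In 10 of the 15 members with several tested peaks, all peaks differed in the same direction. The share over all genes with several tested peaks was not computed, so this count has no background beside it. None of the 15 had peaks that differed from each other past the threshold (edgeR diffSpliceDGE, smallest adjusted p = 0.9999), with 1 at an unadjusted p under 0.05, where 0.699% of 1288 genes passed. That one was Map3k10. Its distal peak (chromosome 7, 27657984 to 27658183) had 288, 570 and 411 reads in BDL and 33, 0 and 0 in control, while its largest peak, near the gene start, had a log2 difference of -0.03 (SE 0.24). Without control replicate 1, Map3k10 passed (adjusted p = 0.00560), and without control replicate 2 Mapk7 did (0.0329). Each time the library left out was the only control library with reads in the distal peak of that gene. The distal peak of Mapk7 (chromosome 11, 61490181 to 61490355) had 735, 739 and 867 reads in BDL and 0, 81 and 0 in control, and its larger peak (chromosome 11, 61491359 to 61491583) rose by 1.48 (SE 0.31, edgeR adjusted p = 0.0273). The 2 peaks of Map3k1 had almost the same log2 differences, 0.96 and 0.97, as had those of Dusp6, -0.41 and -0.44. All 5 peaks of Map3k13 had positive values, from 0.42 to 4.15.

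**Figure D4:**
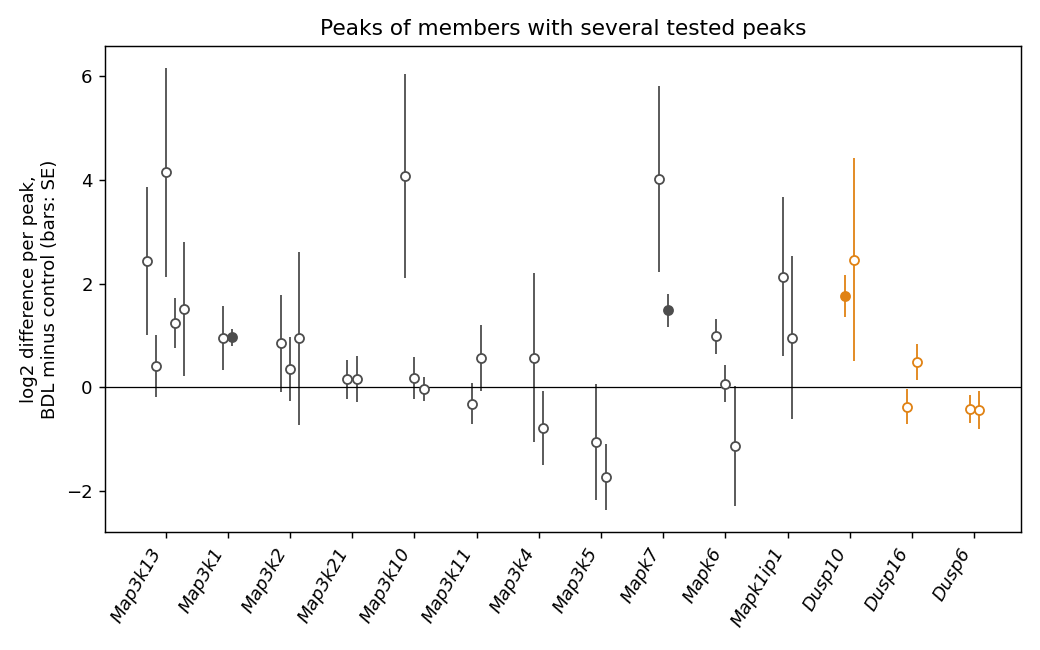
The log2 difference per peak, BDL minus control (y axis, bars for the SE), for members with several tested peaks, each gene's peaks side by side in genome order; filled points passed the adjusted p threshold. The 2 peaks of Map3k1 lie together near 0.96, and those of Map3k10 spread from -0.03 to 4.08.

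Absent reads were uneven. Of the 58 member peaks, 3, 3 and 2 had no reads in the BDL libraries, and 9, 8 and 9 had none in the control libraries. Over all peaks of a single gene these shares were 5.8% to 6.3% in BDL and 9.7% to 13.0% in control. Few member peaks had 1 to 20 reads, at most 3 in a library. The part of absent reads in the results for Map3k9, Map3k10, Map3k13, Mapk7 and Dusp10 was not tested.

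Other genes of the RAS-ERK and stress kinase pathway were listed to place the members. Of 99 listed, 43 had a peak of their own and were tested. Of these 7 rose and 2 fell, so that 20.9% were called against 14.7% of all genes (8.20% higher and 6.55% lower). Their median log2 difference was 0.32, against 0.03 for all genes. Both that fell act at the receptor end. The epidermal growth factor receptor Egfr had 231 ± 32.4 CPM in BDL and 732 ± 166 CPM in control (SD, n = 3 each), and it fell by 1.67 (SE 0.20, edgeR adjusted p = 0.00140). The insulin receptor substrate Irs1 fell by 1.45 (SE 0.26, edgeR adjusted p = 0.00832). The transcription factor Myc had 441, 2127 and 1027 reads in BDL and 0, 0 and 4 in control (edgeR adjusted p = 0.00266), and Jun rose by 1.45 (SE 0.22). These 4 genes passed in each leave-one-out fit. Fosl2, a partner of Jun, rose by 1.95 (SE 0.47), the stress kinase Taok3 by 1.39 (SE 0.39) and the receptor Pdgfra, also among the stellate cell markers, by 1.35 (SE 0.30). The phosphatase Ppm1a rose by 0.82 (SE 0.16) and the RAS GTPase activator Dab2ip by 0.81 (SE 0.20). These last 5 did not pass in at least 1 leave-one-out fit, with adjusted p up to 0.131.

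Marker genes of liver cell types differed between the same libraries. Of 8 cholangiocyte markers 4 were tested and 3 rose, and their sum was 1348 to 2222 CPM in BDL and 38.7 to 52.4 CPM in control, with Krt19, Krt7, Epcam and Spp1 without a peak of their own. Of 8 macrophage markers 4 were tested and 3 rose, with sums of 4705 to 5689 CPM in BDL and 1489 to 2532 CPM in control, with Adgre1, Cd68, Csf1r and Trem2 without a peak of their own. The fourth tested macrophage marker, the Kupffer cell gene Clec4f, lay lower in every BDL library, with means of 139 CPM in BDL and 211 CPM in control, and did not pass (log2 difference -0.60, SE 0.24, edgeR adjusted p = 0.147). Of 7 stellate cell and fibroblast markers 2 were tested and 1 rose, with sums of 318 to 488 CPM in BDL and 113 to 211 CPM in control, with Des, Col1a1, Col3a1, Lrat and Reln without one. Of 6 hepatocyte markers 4 were tested and 2 fell, with sums of 7804 to 10950.3 CPM in BDL and 13273 to 17015 CPM in control. Of 3 tested endothelial markers 0 passed edgeR and 0 DESeq2, 1 had an unadjusted p under 0.05, and their sums overlapped. The 1 tested T and NK cell marker, Il2rb, was at 0 in every control library and rose, and the 1 tested neutrophil marker, Csf3r, did not pass. The part of these cell types in the differences of the members was not tested.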

How the data were processed

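Per the labels' protocols, fragmented liver RNA was immunoprecipitated with an m6A antibody before library preparation. Per the file headers, the authors deposited a raw read count per merged peak and IP library. The same table holds RPM values, a deposited score that equals the count scaled by the library's total in distinct peaks and was used only for that check. The submitters' processing notes name HISAT2, Bowtie2 2.2.8, fastp and bcl2fastq 2.17 without their roles. For peak caller, counter, use of strand and genome build: not given in the sources used here. Peak coordinates count from 1 in that unnamed build.

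The 8649 lines hold 7460 distinct peaks, of which 6474 are annotated to 1 gene and were summed per symbol, while the other 986 entered only peak tests. Genes with few reads were dropped by filterByExpr, TMM factors scaled the totals over distinct peaks, and edgeR's quasi-likelihood test (robust) was run on BDL against control with Benjamini-Hochberg adjustment. The SE is the log2 difference over the square root of F. The fits used edgeR 4.0.16 with limma 3.58.1, and DESeq2 1.42.0, in R 4.3.3. A group without reads was set to 3 reads per library. Alternatives were DESeq2, its size factors, library totals alone, other filters, peaks of 75 bases or less left out, shared peaks counted for each gene, the replicate number as a block and each library left out. Same-numbered BDL and control libraries were not treated as pairs, since the labels do not say that a number marks a shared litter or day. Their deviations from the group means correlated at 0.059, 0.012 and 0.023, and those of differently numbered libraries at -0.046 to 0.025.

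The members and gene lists were chosen with earlier results of these data known. Members given by library were those past the threshold, the 2 with the most reads in each role and the 5 with the smallest p that did not pass, with Dusp1, Dusp8 and Map2k7 added after their values were seen. The values of 1 member are not reported here, though counts and sums include it. Pathway genes named are those past the threshold.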

Additional observations from a re-analysis of the deposited data

How the results depend on the processing

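The replicate number as a block gave 415 calls among all genes, against 635 without it, and 3 inhibitor calls against 5, and its cascade calls were 3 higher and 0 lower. It ended the calls of Dusp5, Spry2, Map3k9 and Map2k3 and brought in Map3k13. The labels do not say that a number marks a shared litter or day. Library totals alone gave 730 calls, 79.3% of them higher against 55.6% with TMM, 10 member peaks against 6, 15 pathway genes against 9, and medians of 1.43 for the inhibitors and 0.44 for the cascade genes. Counting shared peaks for each gene gave 14 pathway genes and a cascade median of -0.041. The inhibitor median was 0.86 with no filter, which adds Spry4, and 0.85 without peaks of 75 bases or less, which removes Dusp8. DESeq2 called 847 genes. Fits without 1 library gave 223 to 622 calls among all genes, 1 to 3 inhibitors, 1 to 3 cascade genes, 4 to 10 pathway genes, 1 to 7 member peaks and 0 to 1 members with differing peaks. Their medians were 1.07 to 1.25 for the inhibitors and 0.051 to 0.22 for the cascade genes. Of 294 values of the 21 members chosen by rule, 242 kept direction and side of the threshold, 39 no longer passed, 9 newly passed and 4 changed sign, none of them called. These were Dusp16 (-0.067 without BDL replicate 3, up to 0.43 in the other leave-one-out fits), Map3k10 (-0.031 without control replicate 1, up to 0.22), Mapk14 (-0.066 without BDL replicate 2, up to 0.12) and Spryd4 (0.10 with library totals alone). The cause of these shifts was not tested. Spry4 and Map4k2 had too few reads to pass the filter, and Dusp8 had 0 to 44 reads in the control libraries.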
